A study of Oryctolagus cuniculus with 6 samples.

Results

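The endothelin system of the rabbit retina was described through 7 genes, which were 7 of the 28788 genes in the deposited tables. They comprised the 3 ligands EDN1, EDN2 and EDN3, the 2 receptors EDNRA and EDNRB, and the 2 converting enzymes ECE1 and ECE2, each found by its symbol. The family was chosen by the measured rise of EDNRB in proliferative vitreoretinopathy (PVR), a scarring process that can follow retinal detachment or eye trauma. The EDNRB values are therefore given as a description without a test, and the other members were taken for their place in the family.

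Retinas of adult rabbits were compared in 2 groups of 3 samples, normal and PVR. In the PVR rabbits the sclera was punctured, some vitreous was removed and platelet-rich plasma was injected into the vitreous cavity. Polyadenylated RNA was sequenced, and the samples had between 31904593 and 43035080 counted reads. The strain, the time after injection, any procedure on the normal eyes and whether each sample was 1 animal are not given in the sources used here, so p-values measure the spread between these samples only. The retina label fits the markers, since 10 rod genes together took 39926 to 48731 CPM (counts scaled to the sample total) in normal and 30926 to 41145 CPM in PVR samples. One library stood apart, normal replicate 2, in which 8 lens genes summed to 31161 CPM against 12.1 to 15.2 CPM in the other normal samples and 272 to 308 CPM in PVR.

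Endothelins are short peptides that are cut from larger precursors in steps, first by furin-type proteases and then by the endothelin-converting enzymes. They act on receptors coupled to G proteins. EDNRA is found mainly on vascular smooth muscle and pericytes and mediates constriction, whereas EDNRB binds all endothelins about equally and is found on endothelium, astrocytes, Müller glia and cells of the neural crest lineage. In the injured retina, stressed photoreceptors are known to make EDN2, which signals to EDNRB on Müller glia, and leukemia inhibitory factor (LIF) from the glia acts upstream of EDN2. Genes are given by symbol, and genomic positions were used only to look for genes that overlap a member.

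EDNRB was about 7-fold higher in the PVR retinas and was the only member whose groups did not overlap in FPKM, as 26.7% of all genes tested did not. Its level, in fragments scaled by gene length and by the sample total (FPKM), was 5.49, 6.78 and 6.11 in normal replicates 1 to 3 and 42.6, 49.5 and 38.5 in PVR replicates 1 to 3. All 3 PVR samples were thus far above all 3 normal samples, with a gap between the groups that was wider than the range of either group. These values rested on 878, 1137 and 1005 reads in normal replicates 1 to 3 and on 5576, 6573 and 6805 reads in PVR replicates 1 to 3. The mean was 6.13 ± 0.648 FPKM (SD, n = 3) in normal and 43.5 ± 5.54 FPKM (SD, n = 3) in PVR retinas, a ratio of the means of 7.10 and a fitted log2 fold change of 2.75. In relative terms the samples of one group were close to each other, with a coefficient of variation of 10.6% in normal and 12.7% in PVR retinas. By its FPKM, EDNRB stood between positions 7392 and 8164 of the 28788 genes in normal samples and between positions 1003 and 1534 in PVR samples. The thresholds were an adjusted p under 0.05 with edgeR's quasi-likelihood method and a log2 difference beyond 1 in size. Past both, 0.69% of the 18697 genes tested were higher in PVR, and nothing is read from the place of EDNRB among them.

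**Figure D1:**
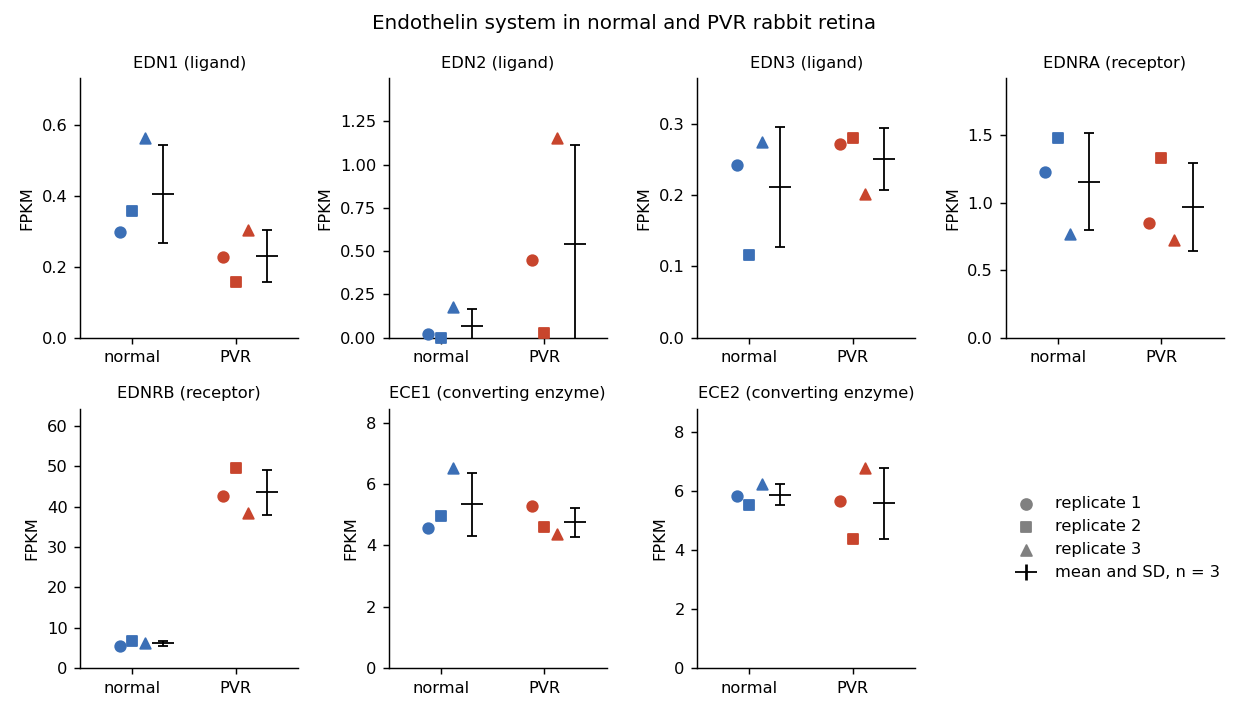
FPKM of the 7 members of the endothelin system in each normal (blue) and PVR (red) sample, with a scale of its own in each panel that starts at 0; black marks give the mean and SD of 3 samples, and the SD bars of EDN2 are cut at 0. EDNRB is the one panel in which the groups stand wide apart, with 5.49 to 6.78 FPKM in normal and 38.5 to 49.5 FPKM in PVR samples.

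EDNRA, the receptor of vascular smooth muscle, did not share this difference. Its FPKM was 1.22, 1.48 and 0.769 in normal replicates 1 to 3 and 0.847, 1.33 and 0.722 in PVR replicates 1 to 3. The groups overlapped, with replicate 2 the highest and replicate 3 the lowest sample of each. EDNRA had a log2 fold change of -0.34 (SE 0.34, 95% interval -1.14 to 0.45, edgeR adjusted p = 0.589), so its change was not distinguishable from the spread between samples. A fall past the fold threshold also lies inside that interval. Without normal replicate 2, the library with lens genes, its log2 fold change was -0.10.

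Because FPKM is scaled by gene length, both receptors can be set beside each other within a sample. EDNRB made up 81.8%, 82.1% and 88.8% of the summed receptor FPKM in normal replicates 1 to 3 and 98.0%, 97.4% and 98.2% in PVR replicates 1 to 3. EDNRB was thus the main receptor transcript of the retina in both groups. The ratio of EDNRB to EDNRA was between 4.48 and 7.95 in normal samples and between 37.1 and 53.4 in PVR samples, a description that carries the known difference of EDNRB.

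The 3 ligands were measured at low levels in both groups, each under 1.2 FPKM in every sample. EDN1, the ligand best known from endothelium, had 16, 20 and 31 reads in normal replicates 1 to 3 and 10, 7 and 18 in PVR replicates 1 to 3. Its FPKM was 0.298, 0.355 and 0.561 in normal replicates 1 to 3 and 0.227, 0.157 and 0.304 in PVR replicates 1 to 3. The groups overlapped by a narrow margin, since PVR replicate 3 lay just above normal replicate 1. On the log2 CPM scale with TMM factors, which correct for composition, the same samples stood at -1.10 and -1.08 and the groups of EDN1 did not overlap. EDN1 had a log2 fold change of -0.86 (SE 0.51, 95% interval -2.05 to 0.32, edgeR adjusted p = 0.362), which was not detectable as a difference at this depth.

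EDN2, the ligand of the photoreceptor response, had almost no reads in most samples. It had 1, 0 and 9 reads in normal replicates 1 to 3 and 18, 1 and 62 in PVR replicates 1 to 3. PVR replicates 3 and 1 were the highest samples, but PVR replicate 2 lay within the normal range. The 95% exact Poisson interval, which covers counting error only, was 47.5 to 79.5 reads for PVR replicate 3 and 0.0253 to 5.57 reads for PVR replicate 2, so PVR samples differed from each other by more than counting error. For the 0 of normal replicate 2 the upper end of that interval was 3.69 reads, and the one-sided limit of 3 reads corresponds to 0.0588 FPKM. EDN2 was removed by the filter on low counts and was not tested. Its log2 CPM, with a prior count of 2, had a mean of -3.25 ± 1.25 (SD, n = 3) in normal and -1.25 ± 2.13 (SD, n = 3) in PVR samples, and the difference of 1.995 was smaller than the SD within PVR. This measure was chosen after the filter was seen to remove EDN2, and the difference was 1.09 without PVR replicate 3 and 3.17 without PVR replicate 2. With all genes kept in the edgeR fit, the adjusted p of EDN2 was 0.302.

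EDN3, a ligand with a known role in melanocyte and enteric neuron development, was alike in number of reads across the samples. It had 24, 12 and 28 reads in normal replicates 1 to 3 and 22, 23 and 22 in PVR replicates 1 to 3. The lowest sample was normal replicate 2, and the other 5 samples lay close together. The log2 fold change of EDN3 was 0.18 (SE 0.47, 95% interval -0.91 to 1.27, edgeR adjusted p = 0.845), and it was -0.10 without normal replicate 2. At these counts a change beyond the fold threshold in the rising direction could not be told from none.

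Summed over the 3 ligands, the level was 0.561, 0.471 and 1.02 FPKM in normal replicates 1 to 3 and 0.950, 0.462 and 1.66 FPKM in PVR replicates 1 to 3. The share of EDN2 in that sum differed widely, from 0% to 17.7% in normal samples, and was 47.5%, 5.36% and 69.5% in PVR replicates 1 to 3. In PVR replicate 2 the EDNRB level was the highest of all samples while the summed ligand level was the lowest. In FPKM, EDNRB exceeded the summed ligands in every sample, by 6.01 to 14.4 times in normal and by 23.2 to 107 times in PVR samples.

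The converting enzymes, which cut the precursor big endothelin into the active peptide, were at similar levels in both groups. ECE1, the widely expressed enzyme, had an FPKM of 4.57, 4.95 and 6.51 in normal replicates 1 to 3 and 5.29, 4.61 and 4.38 in PVR replicates 1 to 3. ECE2, the form found mostly in neurons, had an FPKM of 5.84, 5.54 and 6.26 in normal and 5.65, 4.37 and 6.77 in PVR replicates 1 to 3. For both genes the groups overlapped, with a single sample, normal replicate 3 for ECE1 and PVR replicate 2 for ECE2, standing off from the rest. ECE1 had a log2 fold change of -0.24 (SE 0.16, 95% interval -0.60 to 0.13, edgeR adjusted p = 0.412). ECE2 had a log2 fold change of -0.14 (SE 0.18, 95% interval -0.55 to 0.28, edgeR adjusted p = 0.684). Both intervals lie inside the fold threshold of 1 on either side. ECE1 took 43.9%, 47.2% and 51.0% of the summed enzyme FPKM in normal replicates 1 to 3 and 48.3%, 51.4% and 39.3% in PVR replicates 1 to 3.

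**Figure D2:**
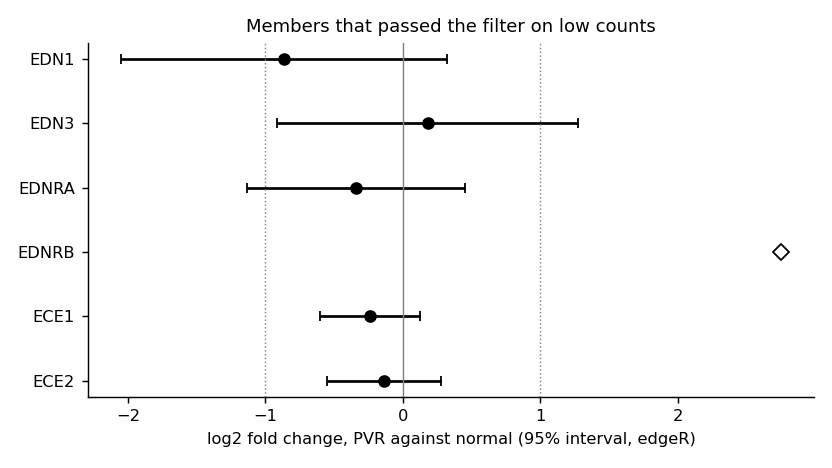
Log2 fold changes of the 6 members tested on counts by edgeR, with PVR above normal to the right; bars are 95% intervals, dotted lines mark the fold threshold of 1, and the open diamond of EDNRB has no bar because EDNRB was chosen for this difference. The intervals of EDN1, EDN3, EDNRA, ECE1 and ECE2 all include 0, and those of ECE1 and ECE2 stay within the dotted lines.

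The counts of EDN1, EDNRA and ECE2 are uncertain, since each overlaps another gene in a newer assembly of the rabbit genome. Only the spans of the genes were compared, and an effect on the counts was not tested. Among members other than EDNRB, 5 passed the filter on low counts and 0 of them were past the thresholds by edgeR, where 1.01% of all genes tested were. None of the 5 was past the adjusted p alone, where 1.7% of all genes tested were, and 0 had an unadjusted p under 0.05. DESeq2 and limma-voom likewise called 0 of the 5. Their log2 fold changes ran from -0.86 to 0.18, against a median of -0.01 over all genes tested.

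The mean levels of EDNRB, ECE2, ECE1 and EDNRA stood in that order, from high to low, in both groups. In the normal retinas EDNRB (6.13 ± 0.648 FPKM, SD, n = 3), ECE2 (5.88 ± 0.363) and ECE1 (5.35 ± 1.03) lay together at the top and did not differ beyond their spread. EDNRA followed at 1.16 ± 0.359 FPKM, and the ligands came last, with EDN1 at 0.405 ± 0.138, EDN3 at 0.211 ± 0.0842 and EDN2 at 0.0667 ± 0.0983. Within every normal sample EDN1 was above EDN3 and EDN3 above EDN2, though the ranges of EDN3 and EDN2 across these samples overlapped. In the PVR retinas EDNRB (43.5 ± 5.54 FPKM, SD, n = 3) stood alone above ECE2 (5.60 ± 1.20) and ECE1 (4.76 ± 0.471), which again lay within their spread. EDNRA (0.968 ± 0.324) and EDN2 (0.543 ± 0.569) could not be ordered in PVR because of the spread of EDN2, and EDN3 (0.251 ± 0.0432) and EDN1 (0.229 ± 0.0733) lay together.

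EDNRB is carried by several cell types, so their markers are given beside its values. Single genes of the marker lists are named with their values known. In bulk tissue, fewer cells of a type and less RNA per cell cannot be told apart. Of 10 Müller glia genes, 1 was lower in PVR past the thresholds, GLUL, where 0.316% of all genes tested were, and 9 were not past them. By overlap of FPKM, 3 of the 10 were lower and 1 was higher in every PVR sample than in every normal sample, where 9.69% of all genes tested were lower in that way and 17.0% were higher. The sum of the list was 2831 to 3403 CPM in normal and 2364 to 2750 CPM in PVR samples. GLUL, the glutamine synthetase of Müller glia, fell from 363 ± 60.0 to 176 ± 8.36 FPKM (SD, n = 3 each), with a log2 fold change of -1.11 (SE 0.12, edgeR adjusted p = 0.0125). Its call was lost without PVR replicate 1 (edgeR adjusted p = 0.106) and without normal replicate 3, where its log2 fold change was -0.98. RLBP1, which binds retinaldehyde, fell by a log2 fold change of 0.89 in size, past the adjusted p but not past the fold threshold (edgeR adjusted p = 0.0294), and was past the adjusted p in 10 of 15 alternatives. SLC1A3, AQP4 and SOX9, other genes of these cells, had log2 fold changes of 0.08, -0.03 and 0.10. These genes lay nearer 0 than the median of the list and do not stand for it. Over the 10 genes the median log2 fold change was -0.19, against -0.01 over all genes tested, with 7 of the 10 below 0. The lowest was -1.13, in a gene that was not past the adjusted p. KCNJ10 was lower in every PVR sample, and DESeq2 called 2 of the 10, both lower. Over all 18697 genes tested DESeq2 called 731, of which 212 were lower.

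Of 5 astrocyte genes tested by edgeR, 0 were past the adjusted p and 3 had an unadjusted p under 0.05, whereas DESeq2 called 1 and limma-voom 0. DESeq2 called 731 of all 18697 genes tested. The share of all genes with an unadjusted p under 0.05 was not computed, so nothing is read from such counts. GFAP, the glial filament protein, had 20.0, 60.5 and 86.1 FPKM in normal replicates 1 to 3 and 157, 164 and 138 FPKM in PVR replicates 1 to 3. By overlap of FPKM, GFAP was higher and PAX2 and ALDH1L1 were lower in every PVR sample, where 17.0% and 9.69% of all genes tested were. The 6 genes of that list summed to 99.99 to 317 CPM in normal and 453 to 528 CPM in PVR samples. GFAP held most of that sum in every sample, with 2236, 7072 and 9885 reads in normal and 14372, 15192 and 16979 in PVR. The higher sum is therefore not read as a rise of the other genes of the list. PAX2, which marks astrocytes of the optic nerve head, had 31, 33 and 128 reads in normal and 1, 0 and 4 reads in PVR replicates 1 to 3. Melanocyte and melanin genes summed to 98.1 to 129 CPM in normal and 64.8 to 104 CPM in PVR samples, and SOX10, a transcription factor of the neural crest lineage and of oligodendrocytes, had 84, 233 and 236 reads in normal and 22, 31 and 27 in PVR. Oligodendrocyte genes were lower in every PVR sample for 6 of 7, where 9.69% of all genes tested were, with sums of 240.2 to 1185 CPM in normal and 139 to 155 CPM in PVR. By edgeR 3 of the 7 were lower past the thresholds, where 0.316% of all genes tested were. That number was 6 without normal replicate 1, 1 without PVR replicate 2, and 0 without normal replicate 2 and without PVR replicate 1. Macrophage and microglia genes were higher in every PVR sample for 8 of 9, where 17.0% of all genes tested were, with sums of 30.6 to 63.5 CPM in normal and 76.4 to 115 CPM in PVR. By edgeR 0 of the 9 were past the adjusted p and 5 had an unadjusted p under 0.05, whereas DESeq2 called 3 and limma-voom 0. All 3 were higher, as were 519 of all 18697 genes tested by DESeq2. The part of these cell types in the EDNRB difference was not tested.

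Vessel markers bear on EDN1 and EDNRA, which are genes of endothelium and of the vessel wall. Of 11 endothelial genes, 5 were lower in all PVR samples, among them CDH5 with 24, 41 and 103 reads in normal and 0, 0 and 1 reads in PVR, and 2 were higher, FLT1 and KDR, where 9.69% and 17.0% of all genes tested were. By edgeR 2 of the 11 were lower past the thresholds and 0 were higher, where 0.316% and 0.69% of all genes tested were. The number lower was 1 without normal replicate 2 and without PVR replicate 2, and 0 without PVR replicate 1. The median log2 fold change of the list was -0.65, against -0.01 over all genes tested, with 8 of 11 below 0. The sum of the list was 608 to 645 CPM in normal and 715 to 747 CPM in PVR samples, of which FLT1 and KDR made up 563 to 628 CPM and 707 to 739 CPM. The other 9 genes summed to 16.7 to 44.7 CPM in normal and 7.80 to 9.18 CPM in PVR samples. The pericyte and smooth muscle genes summed to 32.9 to 66.0 CPM in normal and 28.4 to 53.3 CPM in PVR samples. Of the 11, 1 was higher (CNN1) and 1 lower (RGS5) in all PVR samples, where 17.0% and 9.69% of all genes tested were. By edgeR 1 of the 11 was lower past the thresholds, where 0.316% of all genes tested were, and DESeq2 called 2 and limma-voom 0. DESeq2 called 731 of all 18697 genes tested. Their log2 fold changes had a median of -0.02 and a lowest value of -5.97. The part of the vessels in the values of EDN1 and EDNRA was not tested.

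The genes most like EDNRB over the 6 samples were ranked by likeness. Likeness was the mean absolute difference of log2 CPM, after each gene was centred on its own mean, over 9600 genes with a symbol and a mean log2 CPM of at least 3. The closest was SERPING1, the inhibitor of complement C1, with a difference of 0.10, where the median gene differed by 1.41. Its FPKM was 6.01, 6.29 and 4.65 in normal replicates 1 to 3 and 38.7, 43.4 and 35.2 in PVR replicates 1 to 3, so that the values lay near those of EDNRB in level too, with PVR replicate 2 again the highest. CEBPD, a transcription factor of the acute phase response, followed with 0.21 and MYOF, a membrane repair protein, with 0.23. The next were CP, the iron oxidase ceruloplasmin, with 0.24 and MNDA, a nuclear protein of myeloid cells, with 0.25. With 2 groups this measure is mostly set by the difference between groups.

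**Figure D3:**
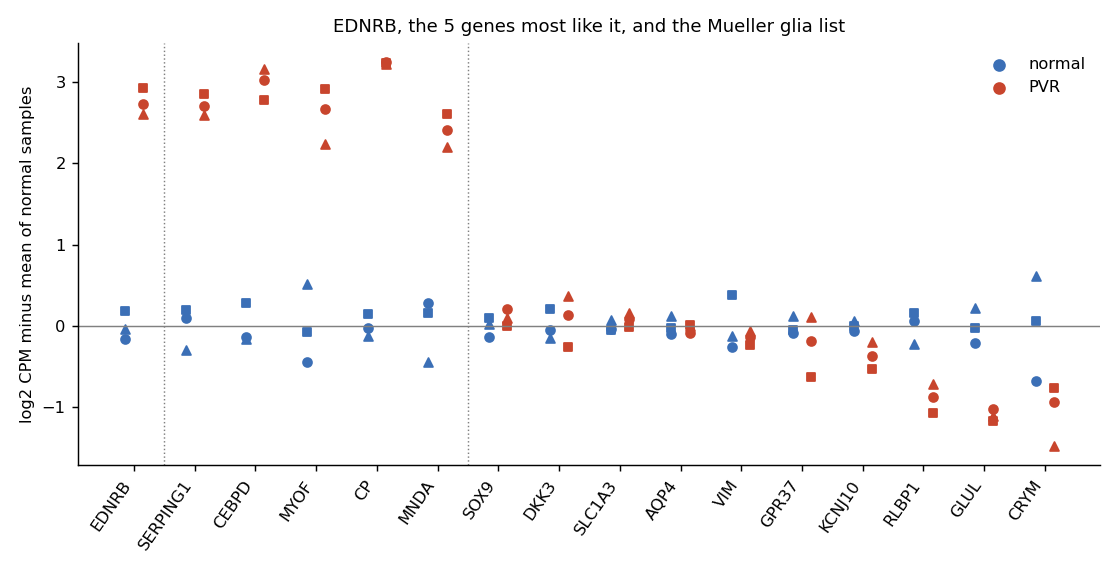
Log2 CPM of EDNRB, of the 5 genes closest to it and of the 10 Müller glia genes in each sample, minus each gene's mean over the normal samples; circles, squares and triangles are replicates 1, 2 and 3. PVR samples (red) of EDNRB and its 5 neighbours lie more than 2 above the normal mean, whereas those of the Müller glia genes lie around 0 or, as for GLUL and RLBP1, below it.

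For EDNRA, the 5 closest genes by the same measure were DDX11, CTSV, PLEKHB2, TMPRSS5 and TMA16, with differences from 0.14 to 0.15 where the median gene differed by 0.41. In FPKM, replicate 3 was the lowest sample of each group for all 5, as it was for EDNRA. The 5 genes were chosen for likeness over these same samples, so this shared order was largely set by the choice.

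Genes around the endothelin system were taken from 6 lists with 110 genes, of which 104 were matched in the files and 94 passed the filter on low counts. Of the 94, 4 were higher and 1 was lower in PVR past the thresholds, which was 5.32% against 1.01% of all genes tested. Nothing is read from this share, since the lists were chosen with earlier results of these data known. The median log2 fold change of the 94 was 0.07.

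The closest relatives of the receptors and the enzymes around the peptide did not pass the test. GPR37 and GPR37L1, orphan receptors that resemble EDNRB in sequence and are found on glia, had 53.6 ± 5.27 and 4.41 ± 0.665 FPKM in normal and 48.6 ± 11.4 and 4.03 ± 0.599 FPKM in PVR retinas (SD, n = 3 each). Their log2 fold changes were -0.21 and -0.20. Of 4 relatives tested by edgeR, GRPR with a log2 fold change of 0.02 included, 0 were past the adjusted p and 0 had an unadjusted p under 0.05, and DESeq2 and limma-voom called 0. Of 9 processing genes tested by edgeR, 0 were past the adjusted p and 2 had an unadjusted p under 0.05, ECEL1 and CTSE, named for this count only. DESeq2 and limma-voom called 0 of the 9, and their median log2 fold change was -0.07. FURIN, which makes the first cut in the precursor, had 14.1, 14.1 and 13.6 FPKM in normal replicates 1 to 3 and 14.8, 13.3 and 13.5 FPKM in PVR replicates 1 to 3. PCSK7 and PCSK5, further proprotein convertases, had log2 fold changes of -0.19 and -0.05.

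Of the 28 receptor coupling genes, GNA14 was higher in PVR past the thresholds, where 0.69% of all genes tested were, and 27 were not past them. GNA14, an alpha subunit of the Gq family of G proteins, had 0.681, 0.721 and 0.829 FPKM in normal replicates 1 to 3 and 1.78, 1.97 and 1.58 FPKM in PVR replicates 1 to 3. The groups did not overlap, and the log2 fold change was 1.19 (SE 0.17, edgeR adjusted p = 0.0249). GNAQ, the abundant member of the same family, had a log2 fold change of 0.03 and was chosen for mention after its value was seen. RGS2, which shuts off Gq, had 70.7, 63.4 and 55.8 FPKM in normal replicates 1 to 3 and 104, 107 and 107 FPKM in PVR replicates 1 to 3. Its log2 fold change was 0.67 (SE 0.10, edgeR adjusted p = 0.0322), which is past the adjusted p but not the fold threshold. The adjusted p of RGS2 was not past 0.05 in 4 of 15 alternatives, among them the fits without normal replicate 2, PVR replicate 1 and PVR replicate 2, where it reached 0.189. The abundant RAB11A, a GTPase of receptor recycling, and PRKCA, a protein kinase C, had log2 fold changes of -0.15 and -0.17. The call of GNA14 was lost in 7 of 15 alternatives, among them the fits without normal replicate 1, normal replicate 2, PVR replicate 1 and PVR replicate 2, with adjusted p up to 0.182.

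Of the 14 genes of the photoreceptor to glia injury axis, 2 were higher past the thresholds, STAT3 and SOCS3, where 0.69% of all genes tested were. The median log2 fold change of the list was 0.35. STAT3, the transcription factor that cytokines of this axis activate, had 16.2, 16.8 and 15.8 FPKM in normal replicates 1 to 3 and 41.6, 44.5 and 32.8 FPKM in PVR replicates 1 to 3. The groups did not overlap, and the log2 fold change was 1.21 (SE 0.11, edgeR adjusted p = 0.00733). The call of STAT3 was lost in 1 of 15 alternatives, the fit without PVR replicate 1 (edgeR adjusted p = 0.0658). SOCS3, the feedback inhibitor that STAT3 induces, had 50, 59 and 57 reads in normal and 453, 510 and 466 reads in PVR replicates 1 to 3, with 0.635 ± 0.0403 and 6.25 ± 1.16 FPKM (SD, n = 3 each). Its log2 fold change was 3.22 (SE 0.21, edgeR adjusted p = 0.00130). IL6ST, the shared receptor chain gp130, and LIFR, the chain that binds LIF, had log2 fold changes of 0.45 (edgeR adjusted p = 0.0532) and -0.03. GFAP, the abundant target of this axis in glia, did not pass, with a log2 fold change of 1.39 (edgeR adjusted p = 0.143).

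LIF itself, mentioned here after its values were seen, had 6, 0 and 4 reads in normal replicates 1 to 3 and 65, 51 and 24 in PVR replicates 1 to 3. All PVR samples were above all normal samples, but LIF did not pass the test (edgeR adjusted p = 0.0792). It passed with DESeq2 (adjusted p = 0.000738), and in the other 13 alternatives it did not. Within PVR, LIF and EDN2 had different orders, since replicate 3 had the fewest LIF reads and the most EDN2 reads.

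Of the 16 tested genes that endothelins are known to switch on or off in cultured cells, FOS was higher past the thresholds and 15 were not. Among all genes tested, 0.69% were higher past the thresholds. A log2 fold change above 0 was found for 14 of the 16. The share of all genes tested above 0 was not computed, but their median log2 fold change was -0.01. Nothing is read from this count, since the lists were chosen with earlier results of these data known. FOS, an immediate early transcription factor, had 8.63, 12.8 and 9.93 FPKM in normal replicates 1 to 3 and 31.5, 41.1 and 21.9 FPKM in PVR replicates 1 to 3. Its log2 fold change was 1.51 (SE 0.24, edgeR adjusted p = 0.0359). JUN, its partner, had a log2 fold change of 0.21, and the glutamate transporters SLC1A3 and SLC1A2 of glia had 0.08 and -0.08. The call of FOS was lost in 5 of 15 alternatives, all of them fits with 1 sample left out other than PVR replicate 3, with adjusted p up to 0.190.

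**Figure D4:**
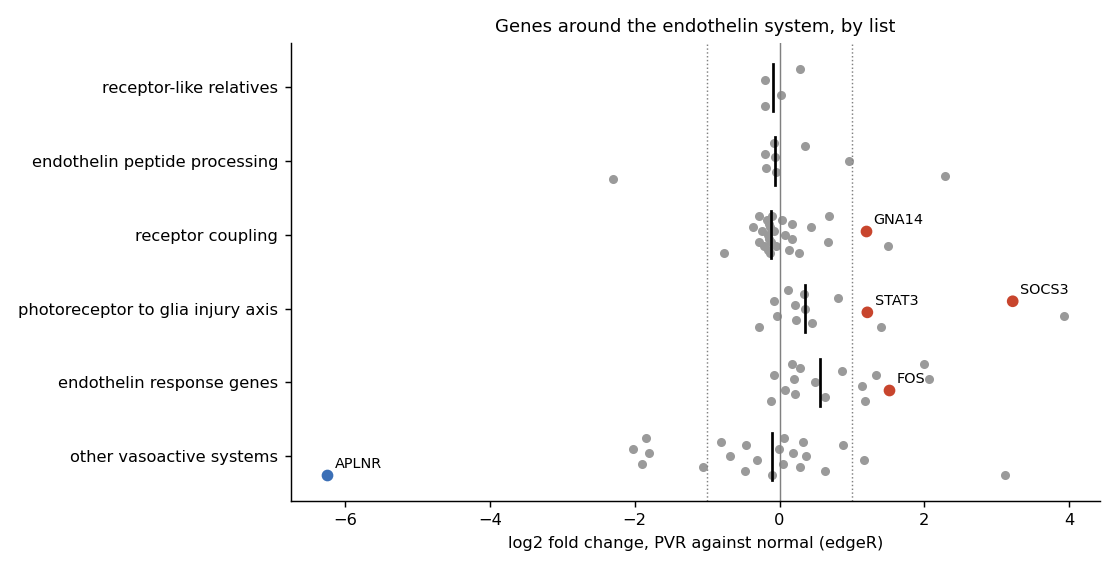
Log2 fold changes by edgeR of the 94 tested genes of the 6 lists, with PVR above normal to the right; black ticks mark each list's median, dotted lines the fold threshold of 1, and coloured named points the 5 genes past the thresholds. GNA14, STAT3, SOCS3 and FOS lie on the side of higher levels in PVR and APLNR on the side of lower levels, whereas no receptor relative or processing gene is coloured.

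The number of these genes past the thresholds depended on the tool and on single libraries. It was 13 with DESeq2, 9 without PVR replicate 3, 3 without normal replicate 1 and without PVR replicate 2, 2 without normal replicate 2 and 1 without PVR replicate 1, and SOCS3 was past them in all 15 alternatives.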

How the data were processed

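RNA from 3 normal and 3 PVR rabbit retinas was sequenced by the authors, who used HISAT2 with the genome OryCun2.0 for alignment and htseq-count for counts per gene. The deposited raw counts are not normalized, and the annotation release and strand setting are not given in the sources used here. The FPKM values deposited by the authors rest on the same counts, with the sample total as depth.

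Counts were tested in R 4.3.3 with edgeR 4.0.16 (default filter, which left 18697 genes, TMM factors, quasi-likelihood test, Benjamini-Hochberg adjustment over these genes). Called genes were past 0.05 in adjusted p and past 1 in the size of the log2 fold change, as in the study's methods. Intervals are 95% intervals from edgeR's standard errors. DESeq2 1.42.0, limma 3.58.1, other factors, filters and pseudocounts (1 and 0.1), a replicate block and leaving out each sample were alternatives. The tests were checked on simulated counts, where edgeR, limma-voom and DESeq2 each made a larger share of false calls than the threshold sets, DESeq2 the most. Figures were drawn with matplotlib 3.10.9.

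The members and lists were chosen with earlier results of these data known. Named genes are the members, called list genes, up to 3 abundant uncalled genes per pathway list and the 5 genes most like a receptor. Other single genes of the marker lists were named by no such rule and with their values known. The remaining named genes are marked as chosen later. List genes were matched by symbol or RefSeq gene number. In RefSeq's newer assembly mOryCun1.1, EDN1, EDNRA and ECE2 each overlap another gene, so their counts are uncertain, though an effect was not tested. Genomic positions were used for this overlap only, and sequences were not used here.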

Additional observations from a re-analysis of the deposited data

How the results depend on the processing

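The 5 tested members other than EDNRB were not past the thresholds in any alternative that gave a value. EDNRB was not tested and is given by its fold change only. EDNRB had a log2 fold change between 2.64 and 2.86 over 15 alternatives, and EDNRA, ECE1 and EDN1 stayed below 0. With single samples left out, the log2 fold change ran from -1.14 to -0.57 for EDN1, from -0.63 to -0.10 for EDNRA, from -0.33 to -0.08 for ECE1, from -0.31 to 0.022 for ECE2 and from -0.10 to 0.41 for EDN3. The sign of ECE2 turned without PVR replicate 2, and that of EDN3 without normal replicate 2, the sample with its fewest reads. Adjusted p stayed between 0.289 and 0.958 for these 5. The difference of EDN2 was 0.47 on the log2(FPKM + 1) scale, and 1.09 to 3.17 with single samples left out. The measure used for EDN2, and the alternatives for single genes of the lists and for the marker lists, were chosen after seeing the data. The fit with at least 10 counts in every sample gave no value for EDN1, and the fits with the filter gave none for EDN2.

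Over all genes, 188 were past the thresholds by edgeR, against 731 with DESeq2, 87 on the log2(FPKM + 1) scale, and 22 to 436 with single samples left out (fewest without PVR replicate 1, most without PVR replicate 3). Of the 94 genes of the lists, 5 were past them by edgeR, against 13 with DESeq2, 3 on the log2(FPKM + 1) scale and 1 to 9 with single samples left out.

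No pairing by replicate number was seen across the genes tested. The correlations of same-numbered samples' deviations from their group means were -0.01, 0.07 and 0.04. With 3 samples per group, such values cannot show that the samples were unpaired. With the replicate block 82 genes were past the thresholds. Low counts limit the ligands, with 0 to 62 reads per sample.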

Other observations

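Other peptide and gas systems that act on vessels were compared with the endothelin genes. Of 23 such genes tested, APLNR was lower in PVR past the thresholds, where 0.316% of all genes tested were. The other 22 were not past them. The median log2 fold change of the 23 was -0.11, against -0.01 over all genes tested. APLNR, the apelin receptor, which is known from endothelium, had 67, 158 and 215 reads in normal replicates 1 to 3 and 0, 4 and 1 reads in PVR replicates 1 to 3. Its fitted log2 fold change was -6.24 (SE 0.85, edgeR adjusted p = 0.0238). APLN, its ligand, named after its values were seen, had 159, 184 and 84 reads in normal and 40, 26 and 46 reads in PVR replicates 1 to 3, with an adjusted p of 0.0640 from edgeR. APLN passed with DESeq2 (adjusted p = 0.000839) and without normal replicate 3 (edgeR adjusted p = 0.0217), and not in the other 13 alternatives. The endothelial markers CDH5 and VWF were also low in PVR, VWF with 228, 620 and 950 reads in normal and 14, 13 and 25 in PVR, and their part in the values of APLNR was not tested. GUCY1B1 and GUCY1A1, subunits of the nitric oxide receptor, and NPR2, a natriuretic peptide receptor, had log2 fold changes of 0.05, 0.06 and 0.19. The call of APLNR was lost in 4 of 14 alternatives, limma-voom, the log2(FPKM + 1) scale and the fits without normal replicate 2 and without PVR replicate 1, with adjusted p up to 0.121.

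MME, the protease neprilysin that can degrade endothelins, was named after its values were seen. It had 285 reads in normal replicate 2, the library with lens genes, and between 3 and 41 reads in the other 5 samples.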
